A study of Homo sapiens with 24 samples.

Results

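The peaks described here lie in 3 stretches of hg19 that hold the smaller replication-dependent histone gene clusters. These are chromosome 1 from 149.75 to 149.87 Mb for HIST2, chromosome 1 from 228.61 to 228.65 Mb for HIST3, and chromosome 12 from 14.92 to 14.9245 Mb for HIST4. Members were chosen by position alone, on either strand, and numbered 238 of the 269336 peaks in the 7 deposited lists. The lists came from enhanced crosslinking and immunoprecipitation (eCLIP), in which ultraviolet light fixes proteins to RNA and the bound RNA fragments are sequenced. All samples were 293T cells, a human embryonic kidney line, irradiated at 254 nm and 400 mJ/cm2. The groups were SLBP replicates 1 and 2 (anti-SLBP, 40 U of RNase I), SLBP replicates 3 and 4 (anti-SLBP, 5 U), RBFOX2 replicates 1 and 2 (anti-RBFOX2, 40 U) and 1 IgG isotype control (40 U), each with a size-matched input of its own. Whether replicates were separate cultures is not stated, and the spread between libraries may be technical.

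Replication-dependent histone genes make the bulk of histone protein in S phase. Their mRNAs end in a conserved stem-loop instead of a poly(A) tail. SLBP, the stem-loop binding protein, holds that structure during 3' end processing, export and translation. RBFOX2 is a splicing regulator that binds GCAUG elements, and these histone genes are mostly without introns. H2A, H2B, H3 and H4 are the core histones around which DNA is wrapped.

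The 9 listed genes are the H2B genes HIST2H2BE, HIST2H2BF and HIST3H2BB, the H2A genes HIST2H2AC, HIST2H2AB and HIST3H2A, and the H4 genes HIST2H4A, HIST2H4B and HIST4H4. All 9 matched a current symbol in the RefSeq table (GRCh38.p14). The peaks carry no gene names, and no hg19 annotation was used, so peaks were given to genes by strand and by the order of neighbouring genes in that table. On this basis the peaks fell into 14 groups, and 17 peaks lay outside them. Of the 9 listed genes, 7 had a group of their own. No peak of any list lay in the 27131 nt between the HIST2H3D group and the next H3 copy, where the order places HIST2H4A. Nor did any peak lie in the 32985 nt before the HIST2H2BE group, where the order places the start of HIST2H4B. HIST2H4A and HIST2H4B are copies of each other, and the sources used here do not give how reads from near-identical copies were counted.

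In 2 places listed genes stand as pairs that start close together and run apart, HIST2H2BE with HIST2H2AC and HIST3H2A with HIST3H2BB. Groups of the duplicated block described further on are not counted here. The strand of a peak therefore separates the genes of a pair. The peaks of HIST2H2BE and HIST2H2AC were 333 nt apart, and those of HIST3H2A and HIST3H2BB 505 nt apart, with 0 peaks of any list in either gap. The stretches between the annotated starts of each pair are shown because both genes are read outward from them. They are from RefSeq promoter sequences, GRCh38.p14, plus strand, at chr1:149886683-149886917 and chr1:228457874-228458102, and capitals mark CCAAT and TATAAA matches in either orientation.
HIST2H2BE/HIST2H2AC: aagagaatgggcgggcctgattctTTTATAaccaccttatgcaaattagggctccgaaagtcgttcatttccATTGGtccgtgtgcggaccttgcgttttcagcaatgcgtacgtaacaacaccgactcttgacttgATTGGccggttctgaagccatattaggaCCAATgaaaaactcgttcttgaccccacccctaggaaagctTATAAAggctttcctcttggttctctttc
HIST3H2A/HIST3H2BB: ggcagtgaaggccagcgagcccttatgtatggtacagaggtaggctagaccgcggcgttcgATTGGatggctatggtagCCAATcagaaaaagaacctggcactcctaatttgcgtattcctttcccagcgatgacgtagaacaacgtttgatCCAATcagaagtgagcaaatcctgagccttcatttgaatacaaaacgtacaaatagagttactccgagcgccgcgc
The first stretch is 235 bases long and holds 3 CCAAT and 2 TATAAA matches. The second is 229 bases long and holds 3 CCAAT matches and 0 TATAAA matches. CCAAT was searched on both strands and is present in 30.9% of the 35116 RefSeq promoters over the same 235 bases upstream, with at least 3 matches in 2.7%. TATAAA, searched likewise, is present in 10.1%, with at least 2 matches in 1.83%. Over 229 bases upstream, CCAAT is present in 30.4%, with at least 3 matches in 2.6%, and TATAAA in 9.87%. These shares are taken upstream of each gene's start, whereas a printed stretch lies between the starts of a pair. The stem-loop sequences themselves are not shown, because no genome was used here.

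SLBP immunoprecipitation was enriched over input at histone genes of all 3 clusters, while RBFOX2 and IgG had no enriched peak there. A peak was called enriched at the authors' −log10 p of at least 5 and log2 fold over input of at least 3, which is 8-fold. SLBP replicates 1 to 4 had 36, 38, 43 and 36 enriched peaks in the windows, against 0 and 0 in RBFOX2 replicates 1 and 2 and 0 in IgG. Enriched peaks made up 94.7%, 92.7%, 86.0% and 90.0% of the window peaks in SLBP replicates 1 to 4. Over the whole lists the enriched share was 1.23%, 1.27%, 1.70% and 2.33% in SLBP, 7.95% and 7.66% in RBFOX2, and 0.180% in IgG. The SLBP window shares thus lay far above the list-wide share in 4 of 4 libraries.

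The RBFOX2 lists held 29 and 30 window peaks and the IgG list 10. With no enriched peak among them, shares of up to 10.3%, 10.0% and 30.0% remain allowed, taken as 3 counts of the total (exact 95% intervals reach 11.9%, 11.6% and 30.8%). The RBFOX2 limits lie above its list-wide shares, so a window share lower than the list-wide one was not detectable. These limits cover counting error only, and the read depth behind each peak is unknown. The enriched share averaged 90.9% ± 3.8 in SLBP (SD, n = 4) and 0% in both RBFOX2 libraries (exact permutation p = 0.133, two-sided, the smallest that 4 against 2 libraries can give). The windows held 14.8% ± 1.5 (SD, n = 4) of all enriched SLBP peaks.

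The direction against input also differed between antibodies. Of the 169 SLBP window peaks, 0 lay below input, against 51 of 59 from RBFOX2 and 2 of 10 from IgG. The share of peaks below input over the whole lists was not measured, so these counts cannot be set against it. This also holds for the RBFOX2 counts below input at the listed genes further on. Taking every window peak, enriched or not, median log2 folds were 5.36, 5.95, 4.28 and 5.73 in SLBP replicates 1 to 4, against −0.85 and −1.70 in RBFOX2 replicates 1 and 2 and 0.57 in IgG. All 4 SLBP medians lay above the other 3. The SLBP mean was 5.33 ± 0.74 (SD, n = 4) and the RBFOX2 mean −1.28 ± 0.60 (SD, n = 2; exact permutation p = 0.133, two-sided). Each list is scaled to its own input, and whether those scalings match is not known.

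The peaks are counted here by cluster and strand. Strand was used to give peaks to genes, so agreement between peak strand and gene strand is partly built in. HIST2 held 41 SLBP peaks on the plus strand, 38 of them enriched, and 88 on the minus strand, 75 of them enriched. HIST3 held 9 on the plus strand, from the H2B gene, and 7 on the minus strand, from the H2A gene, all of them enriched. HIST4 held 24, all on the minus strand and all enriched. RBFOX2 had 8 and 34 peaks on the plus and minus strands of HIST2, 4 and 5 in HIST3, and 8 on the minus strand of HIST4. The IgG peaks were 2 and 5 in HIST2, 1 on the minus strand of HIST3 and 2 on the minus strand of HIST4. No peak of any list lay on the strand opposite to a gene group within its extent (0 over the 14 groups).

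**Figure D1:**
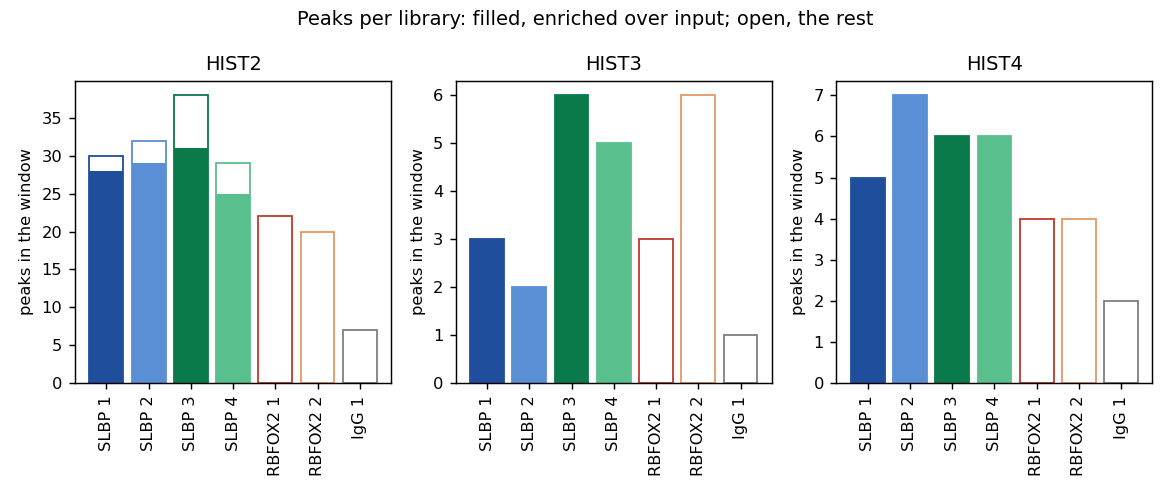
Number of peaks per library (vertical axis) in the HIST2, HIST3 and HIST4 windows, with the filled part of each bar showing enriched peaks and the open part the rest. SLBP bars are filled almost throughout (25 to 31 enriched peaks in HIST2), while RBFOX2 and IgG bars are open.

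Among the 7 listed genes with peaks, every SLBP library had an enriched peak at every gene, 28 of 28 combinations. The highest peak per gene and SLBP library had log2 folds of 4.23 to 9.85. At the same genes the highest RBFOX2 peak was below input in 14 of 14 combinations, and the highest IgG peak was at 2.90. The SLBP values did not overlap those of RBFOX2 at any of the 7 genes, or those of IgG at the 5 genes with an IgG peak. How often the antibodies separate in this way over all genes was not measured, and each list is scaled to its own input. Over the whole series, 3.49% of the stretches with a peak in every SLBP list, joined within 1 kb, were enriched in every SLBP list.

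HIST3H2BB, an H2B gene on the plus strand of chromosome 1, had log2 folds of 9.03, 9.48, 8.04 and 9.33 in SLBP replicates 1 to 4, against −1.59 and −1.68 in RBFOX2 replicates 1 and 2 and no IgG peak. The mean was 8.97 ± 0.65 (SD, n = 4), with the narrowest spread of the 7 genes. Its peaks spanned 228646045 to 228646256.

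HIST2H2BE, an H2B gene on the minus strand, had 8.87, 9.85, 7.49 and 9.51 in SLBP replicates 1 to 4, against −0.74 and −1.83 in RBFOX2 and 2.90 in IgG. The SLBP mean was 8.93 ± 1.04 (SD, n = 4). Its peaks spanned 149857650 to 149858205. The gene table lists HIST2H2BE at 2224 nt and its neighbour HIST2H2AC at 494 nt; as background, HIST2H2BE is known to make a polyadenylated mRNA as well as the stem-loop form. The IgG peak at 2.90 missed the p limit, with a −log10 p of 1.13. It lay past the 3' border of SLBP enrichment, ending 85 nt downstream of it.

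HIST3H2A, the H2A partner of HIST3H2BB on the minus strand, had 6.99, 9.33, 5.74 and 8.21 in SLBP replicates 1 to 4, against −0.29 and −1.08 in RBFOX2 and 0.57 in IgG. Its SLBP mean was 7.57 ± 1.55 (SD, n = 4), at 228645075 to 228645539. HIST4H4, which encodes histone H4 away from the other clusters, had 6.58, 8.61, 5.28 and 8.59, against −1.05 and −1.01 in RBFOX2 and 0.73 in IgG. Its SLBP mean was 7.26 ± 1.63 (SD, n = 4), on chromosome 12 at 14923653 to 14924050, minus strand. In both genes replicate 3 was lowest and replicate 2 highest.

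HIST2H2AC, an H2A gene on the plus strand, had 8.92, 8.37, 5.64 and 6.07 in SLBP replicates 1 to 4, against −1.21 and −1.62 in RBFOX2 and 1.14 in IgG. Here both 40 U libraries lay above both 5 U libraries, and the mean was 7.25 ± 1.64 (SD, n = 4), at 149858539 to 149858959. HIST2H2AB, an H2A gene on the minus strand that runs towards HIST2H2AC, had 7.003, 8.42, 6.54 and 6.73, against −0.81 and −1.14 in RBFOX2 and no IgG peak. Its SLBP mean was 7.17 ± 0.85 (SD, n = 4), at 149859020 to 149859456. The 3' borders of SLBP enrichment on these 2 genes faced each other with 60 nt between them.

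HIST2H2BF, an H2B gene on the minus strand, had 6.45, 5.80, 4.23 and 4.87 in SLBP replicates 1 to 4, against −1.25 and −2.04 in RBFOX2 and 0.57 in IgG. Its mean of 5.34 ± 0.98 (SD, n = 4) was the lowest of the 7 genes, and it was lowest in 4 of 4 libraries. Its peaks spanned 149783433 to 149783880. The gene table lists HIST2H2BF at 29682 nt, the longest entry of the 9 listed genes.

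Ordered by mean, HIST3H2BB and HIST2H2BE came first, 0.04 apart on the log2 scale. HIST3H2A followed 1.36 lower, HIST4H4 0.30 below that, HIST2H2AC 0.01 below HIST4H4 and HIST2H2AB 0.08 below HIST2H2AC. Each of these steps was smaller than the larger SD of the neighbours, though HIST2H2BE lay above HIST3H2A in 4 of 4 libraries. The step to HIST2H2BF was 1.84, larger than both SDs, and HIST2H2BF lay below HIST2H2AB in 4 of 4 libraries. These folds are over input and do not rank the amounts of mRNA.

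**Figure D2:**
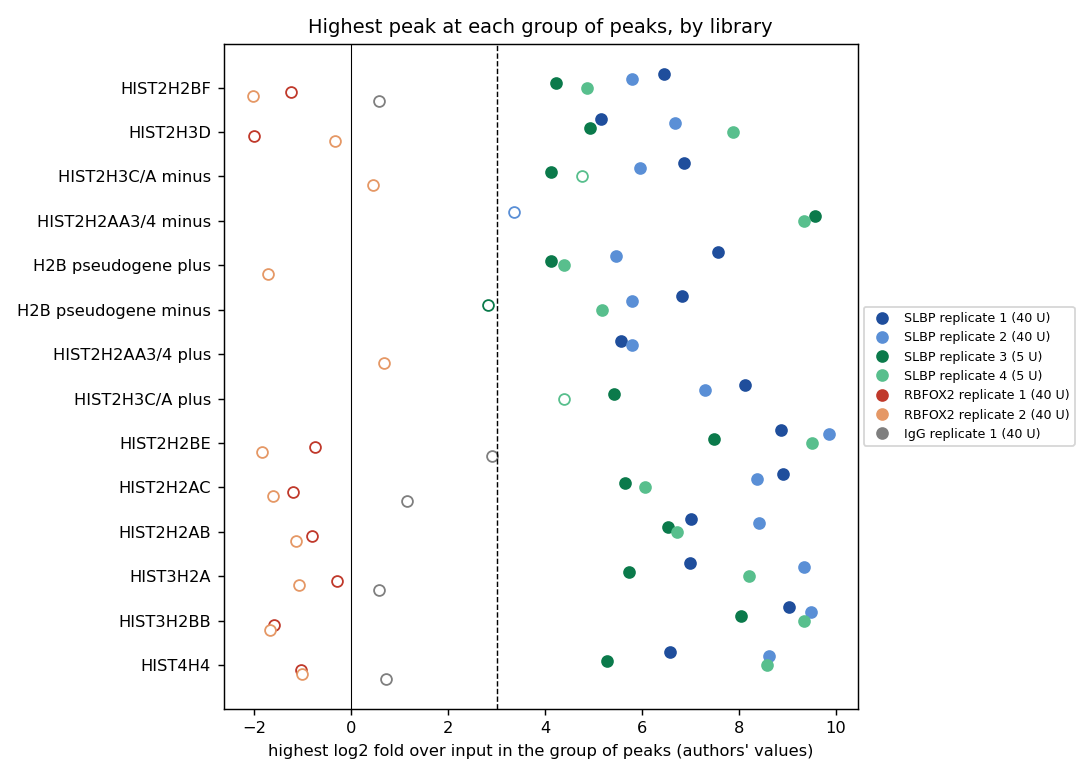
Highest log2 fold over input (horizontal axis) at each of the 14 groups of peaks (rows), 1 point per library; filled points had an enriched peak and the dashed line marks the fold limit of 3. SLBP points lie between 4.23 and 9.85 at the 7 listed genes, and RBFOX2 points lie below 0 there.

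At the listed genes the fold of enriched SLBP peaks was mostly higher at the 3' end than upstream. The 3' border was taken as the outermost nucleotide of SLBP enrichment at a gene over the 4 libraries. Counting the 7 genes together with HIST2H3D and an H2B pseudogene, which also passed in all 4 libraries, 27 combinations of gene and library had more than 1 enriched peak. In 26 of the 27 the 3'-most enriched peak had a higher log2 fold than the 5'-most one, with a median difference of 2.29 (range −0.02 to 5.25). The exception was HIST2H2AB in SLBP replicate 4. At HIST2H2BF in SLBP replicates 3 and 4 the differences were only 0.40 and 0.20. There the 3'-most enriched peak ended 137 and 139 nt upstream of the border, and the highest peak 299 and 182 nt upstream. At the other groups, all in the duplicated block described further on, the 3'-most enriched peak was the lower one in 4 of 7 such combinations (range −1.71 to 0.34). In 33 of 36 combinations the highest peak ended within 60 nt of the border. Only 27 of these 36 had more than 1 enriched peak, and in the rest there was no other enriched peak to compare. The border comes from these same peaks, so the count of 33 is a description and partly fixed in advance.

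The size of the difference varied between libraries of the same gene. In HIST2H2BE the 3'-most enriched peak lay above the 5'-most one by 2.16, 2.82, 2.97 and 5.25 on the log2 scale in SLBP replicates 1 to 4. The enriched peaks of HIST2H2BE spanned 121, 122, 370 and 451 nt in these libraries, so its differences were taken over unlike lengths. In HIST2H2AC the differences were 5.16, 3.67, 2.15 and 1.10, over spans of 406, 407, 412 and 415 nt. SLBP replicate 4 had the largest difference at HIST2H2BE and the smallest at HIST2H2AC. Peaks under the limit are not in these values: at HIST2H2BE the 2 peaks furthest upstream in SLBP replicate 3 had log2 folds of 2.49 and 2.15.

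RBFOX2 and IgG peaks on the same genes varied in their distance from the border. The 3'-most RBFOX2 peak ended a median of 119.5 nt upstream of it (range 11 to 285, 14 combinations), and the 3'-most IgG peak a median of 100 nt upstream (range −85 to 410, 5 combinations). In RBFOX2 replicates 1 and 2 it ended 11 and 15 nt upstream at HIST2H2BE, and 15 and 22 nt at HIST4H4. At HIST3H2BB the distances were 65 and 14 nt. The IgG peak at HIST4H4 ended 27 nt upstream. The 3'-most SLBP peak ended a median of 2 nt upstream (range 0 to 139, 28 combinations). The border is defined by SLBP peaks, so the SLBP distances only describe how closely the libraries coincide. All 37 RBFOX2 peaks at the 7 genes were below input, with log2 folds from −3.72 to −0.29 and a median of −1.59. The 10 IgG peaks ran from −0.27 to 2.90 with a median of 0.57.

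**Figure D3:**
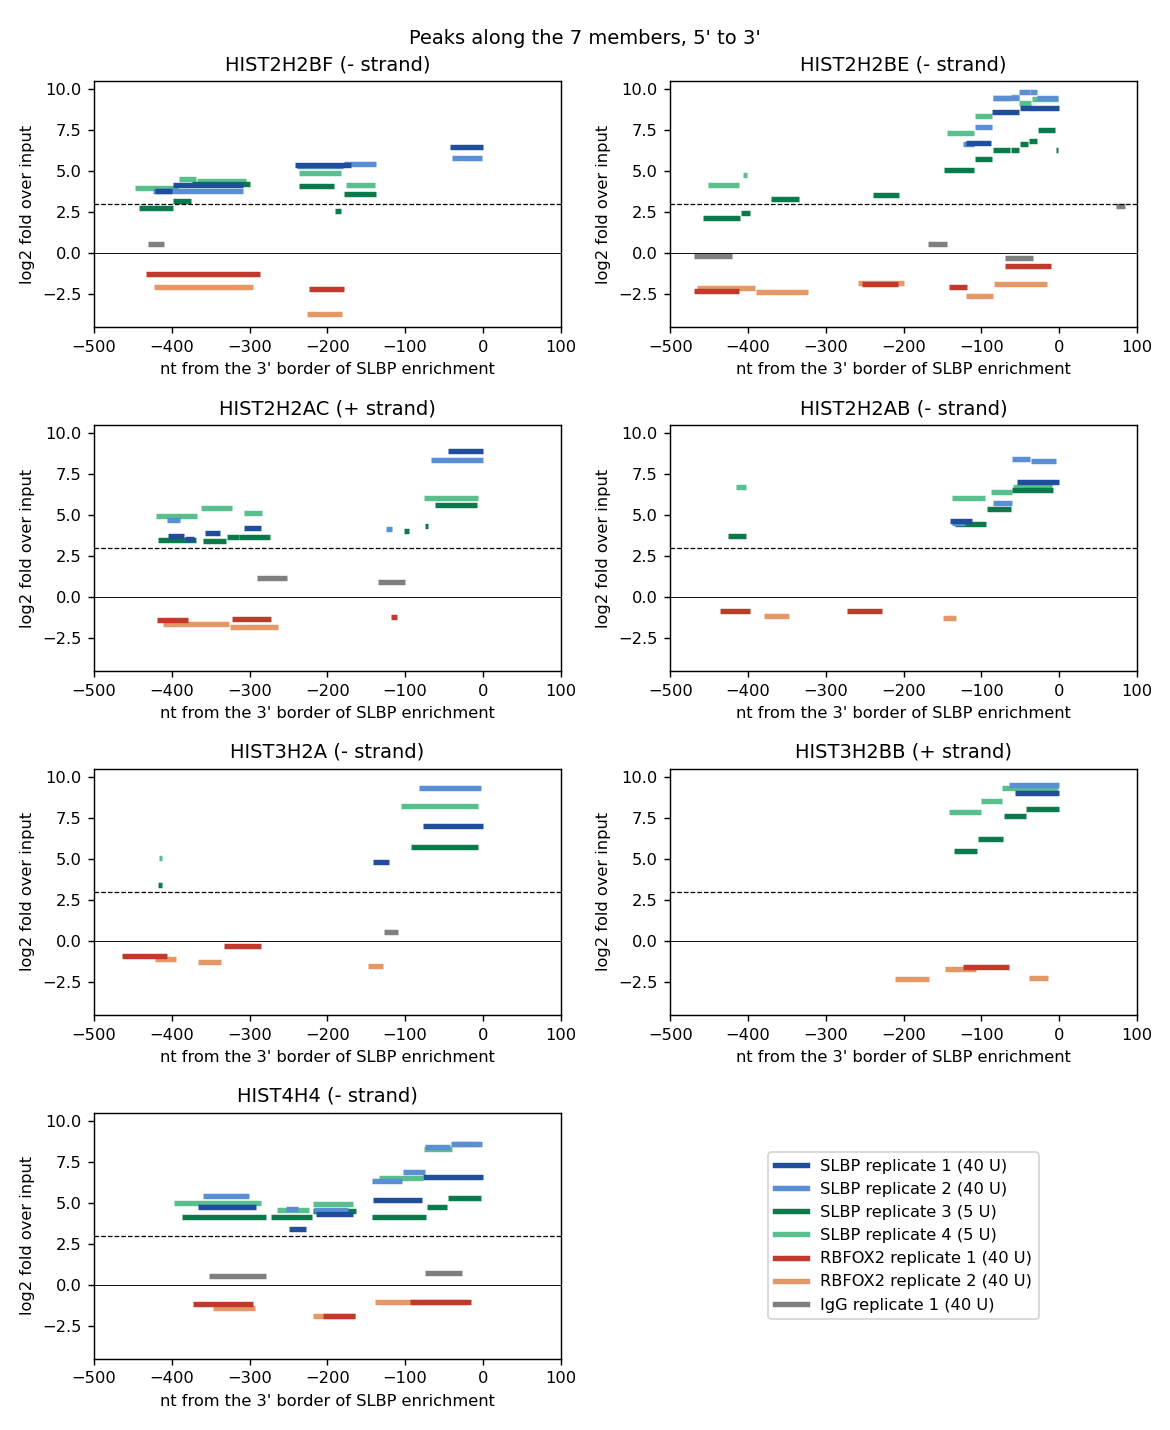
Log2 fold over input (vertical axis) of every peak at the 7 listed genes against the distance in nt from the 3' border of SLBP enrichment (horizontal axis, 5' to the left); each bar is 1 peak, coloured by library, and the dashed line marks a log2 fold of 3. SLBP bars are mostly higher near the border, up to 9.85 at HIST2H2BE, while RBFOX2 bars lie below 0 along the genes.

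SLBP enrichment spanned more of the transcript with the lower RNase I amount in 6 of the 9 groups enriched in all 4 libraries. Over these 9 groups, the span from the first to the last enriched nucleotide averaged 279.7 and 295.4 nt in the 5 U replicates 3 and 4, against 221.1 and 200.0 nt in the 40 U replicates 1 and 2. The means were 287.6 ± 11.2 nt at 5 U and 210.6 ± 14.9 nt at 40 U (SD, n = 2 each; exact permutation p = 0.333, two-sided, the smallest that 2 against 2 can give). The nucleotides under enriched peaks averaged 163.6 ± 0.5 per group at 5 U and 127.2 ± 0.2 at 40 U (SD, n = 2 each). At a log2 fold limit of 4 the span difference fell to 22.3 nt (exact permutation p = 1), against 77.0 nt at the limit of 3. Replicate number changes together with the RNase I amount and cannot be told apart from it.

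Single genes differed in this. Both 5 U spans exceeded both 40 U spans at 6 of the 7 listed genes. HIST3H2A spanned 413 and 411 nt at 5 U, against 142 and 80 nt at 40 U, and HIST2H2AB 419 and 407 nt against 141 and 135 nt. In both genes the added length came from a short enriched peak near the far 5' end, which was 6 and 4 nt wide in HIST3H2A and 25 and 14 nt wide in HIST2H2AB in replicates 3 and 4. HIST3H2BB stayed short, at 136 and 140 nt at 5 U against 58 and 66 nt at 40 U. HIST2H2BF went the other way, with 262 and 309 nt at 5 U against 422 and 424 nt at 40 U. So did the neighbouring H3 gene HIST2H3D, with 61 and 65 nt at 5 U against 270 and 136 nt at 40 U. The plus-strand H2B pseudogene had 59 and 68 nt at 5 U against 63 and 70 nt at 40 U, which overlap. At HIST2H2BF replicates 1 and 2 had a peak of 43 and 40 nt at the 3' end, and replicates 3 and 4 had none there. Within the stretch enriched in all 4 libraries, 149783602 to 149783831, the highest log2 folds of HIST2H2BF were 5.39 and 5.43 in replicates 1 and 2.

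At the other 6 listed genes the 3' borders coincided to within 9 nt over the 4 libraries. The mean 5 U border lay further upstream than the mean 40 U border in all 6, by 0.5 to 6.5 nt, a mean of 3.75 nt. Single libraries overlapped or tied at HIST2H2BE, with borders 1 and 2 nt upstream at 5 U against 0 and 2 nt at 40 U. They also tied in part at HIST3H2BB, with 0 and 2 nt at 5 U against 0 and 0 nt at 40 U. The mean highest log2 fold was lower at 5 U than at 40 U at 7 of 7 genes, with differences from −0.57 at HIST3H2BB to −2.79 at HIST2H2AC. At single genes these differences were not tested, and the individual libraries overlapped at HIST3H2BB, HIST2H2BE, HIST3H2A and HIST4H4. Peak width did not follow the spans: the median window peak was 34.5 and 41.5 nt wide at 5 U, against 36 and 33 nt at 40 U (exact permutation p = 0.667, two-sided). The difference of 3.5 nt was 7 nt without replicate 3, 5 nt without replicate 1, 2 nt without replicate 2 and 0 nt without replicate 4.

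**Figure D4:**
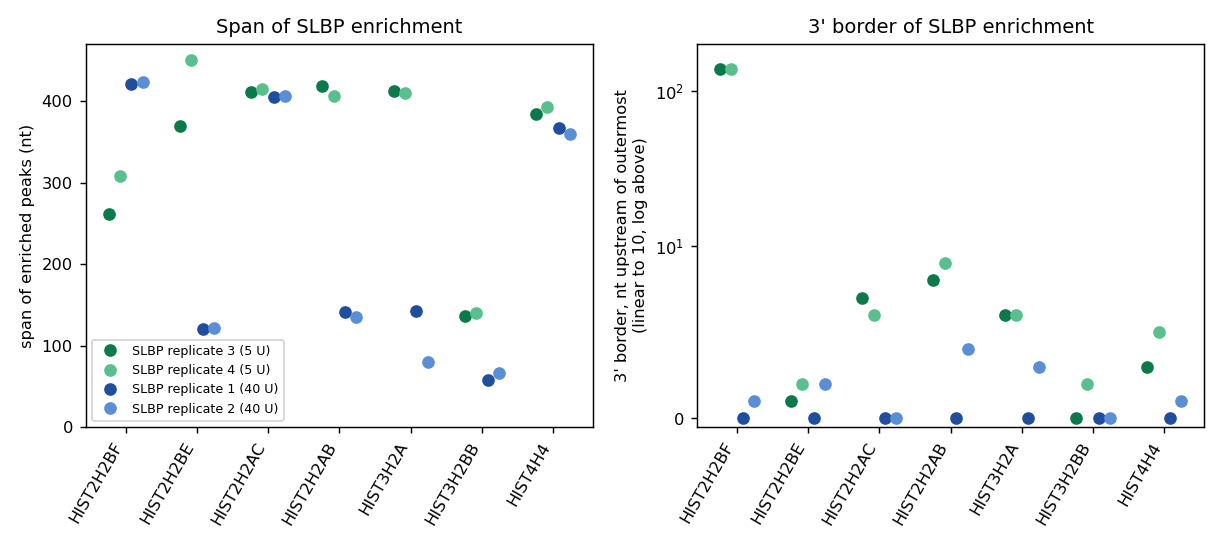
Left, span in nt from the first to the last enriched SLBP nucleotide at each listed gene; right, nt by which each library's 3' border lies upstream of the outermost one (linear to 10, log above); 1 point per SLBP library. The 5 U points lie above the 40 U points in span at 6 of 7 genes, with HIST2H2BF the exception at 262 and 309 nt.

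The remaining HIST2 genes are an H3 gene and a duplicated block. HIST2H3D, an H3 gene beside HIST2H2BF, had highest log2 folds of 5.16, 6.68, 4.92 and 7.88 in SLBP replicates 1 to 4, a mean of 6.16 ± 1.39 (SD, n = 4), against −2.002 and −0.33 in RBFOX2 and no IgG peak. Further on, the gene table lists 2 inverted sets of an H3 copy, an H2A copy and an H2B pseudogene, and 6 of the 14 groups lay there. They held 42 peaks, of which 38 were SLBP peaks (30 enriched), 4 were RBFOX2 and 0 IgG. How the authors counted reads that match several copies is not known, so levels at single copies are uncertain.

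The H3 copies were enriched in 3 of 4 SLBP libraries each. The minus copy had 6.86, 5.95, 4.12 and 4.75 in SLBP replicates 1 to 4, and the plus copy 8.13, 7.29, 5.41 and 4.39. Replicate 4 missed the p limit at both.

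The H2A copies split by library. On the minus copy SLBP replicates 3 and 4 had 9.58 and 9.34, replicate 2 had 3.36 with a −log10 p of 1.79, and replicate 1 had no peak. On the plus copy replicates 1 and 2 had 5.57 and 5.80, and replicates 3 and 4 had no peak. Each copy was thus enriched in 1 pair of libraries, 5 U on the minus copy and 40 U on the plus copy, which was not tested.

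SLBP was also enriched where the gene order places H2B pseudogenes. The plus-strand group at 149815016 to 149815086 had 7.57, 5.46, 4.12 and 4.39 in SLBP replicates 1 to 4, against −1.72 in RBFOX2 replicate 2 and no other peak, and corresponds in order to H2BC19P. At a −log10 p limit of 10 it passed in 2 libraries only. The minus-strand group at 149821863 to 149821948 had 6.83, 5.80, 2.83 and 5.17, was enriched in 3 libraries and corresponds in order to H2BC20P. The tables used here give no strand for either pseudogene.

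Outside the groups, 14 peaks lay scattered on the minus strand between the duplicated copies, 12 from RBFOX2 and 2 from SLBP. Their log2 folds ran from −2.14 to 1.83, and none was enriched. In order they overlap the long HIST2H4B entry of the gene table, at 16753 nt, but they were not given to a gene. The HIST4 window held 2 RBFOX2 peaks outside the HIST4H4 group, also not enriched. The last peak outside the groups was from RBFOX2 replicate 1, on the minus strand of HIST2 at 149761313 to 149761336. Its log2 fold was −0.002. HIST3H3, a testis H3 gene in the HIST3 window, had 0 peaks in any list.

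Joining nucleotides that were enriched in all 4 SLBP libraries within 1 kb gave 9 sites in the windows, of 44 in the whole series. Of the 1232 stretches with a peak in every SLBP list, joined likewise, 43 (3.49%) were enriched in every one. The 44 sites were joined from enriched nucleotides alone, so 44 is not the count behind this share. The 9 sites were the 7 listed genes, HIST2H3D and the plus-strand H2B pseudogene. Within each SLBP list, enriched window peaks had lower folds than the other enriched peaks, with median log2 folds of 5.44, 6.50, 4.75 and 6.24 against 5.86, 7.24, 5.35 and 6.64 in replicates 1 to 4. The difference averaged −0.54 and was negative in 4 of 4 libraries (exact sign-flip permutation p = 0.125, two-sided, the smallest that 4 libraries can give). Beside the HIST1 peaks alone it was −0.69.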

How the data were processed

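The authors deposited 1 peak list per library, without a header. The submitters' processing notes name SAMtools, Picard, GATK, STAR and cutadapt, and the build hg19; the sources used here give neither versions nor the peak caller. Each deposited peak has a log2 fold of the immunoprecipitation over its paired input, and the deposited −log10 p-value runs from 0 to 400 with a pile-up at 15.66; units were read from the values and the naming of the lists. Depth is unknown, so no interval for a single fold was possible.

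Peaks touching the 3 windows were taken from all 7 lists (Python 3.11.15, pandas 2.3.3, numpy 2.4.6). Of 24 samples, 7 inputs entered only through the folds, and 10 RBFOX2 samples of an RNase I series were not analysed here. Named are all listed genes, the other histone genes of the windows, and every site enriched in all 4 SLBP libraries. Groups, the borders of gene groups and gene lists were chosen with earlier results of these data known. Groups of libraries were compared by exact permutation, two-sided; overlap meant at least 1 nt on 1 strand. Counting and tests were tested on simulated data. Alternatives were other limits, merged peaks, joining distances, left-out libraries and 40 U libraries alone. RBFOX2 and SLBP replicate numbers were not shown to pair the samples.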

Additional observations from a re-analysis of the deposited data

Results flagged for a closer look

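In 42 quantities of the 4 SLBP libraries, 4 had 1 library apart from the other 3 by more than Dixon's 95% limit; chance flags about 1 in 20. HIST2H2BF had 5 enriched peaks in SLBP replicate 4 and 4 in each other library. HIST2H2AB had 2 enriched peaks in SLBP replicate 1 and 4 in each other library. HIST3H2A had 1 enriched peak in SLBP replicate 2 and 2 in each other library. The HIST3H2BB border lay 2 nt upstream of the outermost one in SLBP replicate 4 and 0 nt in the others. All 4 are whole numbers in which the other 3 libraries tied.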

How the results depend on the processing

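No test here could pass 0.05. Merging touching enriched peaks lowered the mean enriched count of SLBP over RBFOX2 to 25, against 38.25. At a log2 fold limit of 4 the span difference between 5 U and 40 U was 22.3 nt (exact permutation p = 1), against 77.0 nt. The width difference of 3.5 nt was 7 nt without SLBP replicate 3 and 0 nt, with no direction, without SLBP replicate 4. With SLBP and RBFOX2 replicates 1 and 2 taken as pairs (replicate block), the count difference was 37, the share difference 93.7 percentage points and the median log2 difference 6.93 (exact sign-flip p = 0.5 each), so the block changed no call. Sites enriched in all 4 SLBP libraries numbered 8 to 11 over other limits and joining distances. Leaving out 1 library gave count differences of 36.7 to 39, share differences of 89.6 to 92.5 points, median differences of 6.18 to 7.03, span differences of 66.4 to 87.6 nt, width differences of 0 to 7 nt and differences from other enriched peaks of −0.59 to −0.47. At a −log10 p limit of 10, the plus-strand H2B pseudogene was enriched in 2 SLBP libraries, against 4. Unknown depth and the pile-up of p-values limit the ranking of single peaks.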
